A study of Mus musculus with 2 samples.

Results

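The genes described here were 10 genes of the circadian clock, Nr1d1, Nr1d2, Dbp, Tef, Hlf, Per2, Per3, Ciart, Bhlhe41 and Arntl, out of 32285 genes listed in the files. They were found by their symbols, and they had been selected on the same data, on the ratio of their levels between the 2 libraries of the series, with Arntl taken as the gene that went the other way. The direction and the size of those ratios, over all cells and within the cell classes and clusters that make them up, are therefore a description of genes selected on this contrast and support nothing beyond it, and so are the counts of genes past a fold that are set beside the share of all genes.

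The study isolated live mononuclear cells from limb muscle of aged C57BL/6 mice that had received intraperitoneal injections of the drug Maraviroc (MVC) or of its vehicle DMSO, to ask whether the drug lowers senescence in ageing muscle. The labels give no allele or genetic change for either group. Each group gave 1 droplet-based single-cell RNA-seq library (10x Genomics), so the spread between mice is unknown, no test was possible, and the 95% intervals below are exact and cover counting error only. The number of mice in each library and the time of day of collection were not given in the sources used here, and with 1 library per group the treatment, the mice and the collection cannot be told apart.

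The clock of mammalian cells is a feedback loop of transcription. The heterodimer of CLOCK and BMAL1, the product of Arntl, binds E-box elements and switches on the genes of its own repressors, the PER and CRY proteins, and of the nuclear receptors REV-ERBα (Nr1d1) and REV-ERBβ (Nr1d2), which in turn repress Arntl, so that Arntl and the genes it drives peak at opposite times of day. DBP, TEF and HLF form the PAR family of basic leucine zipper factors and carry the rhythm to D-box elements of further genes, while BHLHE41 (DEC2) and CIART (CHRONO) dampen the activity of CLOCK and BMAL1, and skeletal muscle is one of the tissues in which such rhythms are well known.

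These elements were looked up in the promoter windows that RefSeq gives for the genes on GRCm38.p6, each running from 250 bases before to 50 bases after the start of transcription. A window was found for 9 of the 10 genes, with Per2 as the exception, and Tef and Arntl had 2 windows each, giving 11 windows. The E-box was searched as CACGTG, which reads the same on both strands, the D-box as TTATGTAA or TTACATAA and as TTACGTAA, and the half-site bound by REV-ERB and ROR receptors as AGGTCA or TGACCT. The E-box was present in windows of 3 genes (Tef, Ciart and Bhlhe41), the D-box in that of Per3 and the half-site in those of Nr1d2 and Arntl. Of all 32851 windows of this length, 7.15% held the E-box, 0.938% the D-box in the form TTATGTAA, 0.119% the form TTACGTAA and 16.3% the half-site. The windows below show where these letters lie, written from 5′ to 3′ on the gene's strand in lower case, with each match in capitals; those of Ciart, Bhlhe41 and Tef carry the E-box, that of Per3 the D-box and that of Arntl the half-site.
Ciart (chr3:95882179-95882478, minus strand): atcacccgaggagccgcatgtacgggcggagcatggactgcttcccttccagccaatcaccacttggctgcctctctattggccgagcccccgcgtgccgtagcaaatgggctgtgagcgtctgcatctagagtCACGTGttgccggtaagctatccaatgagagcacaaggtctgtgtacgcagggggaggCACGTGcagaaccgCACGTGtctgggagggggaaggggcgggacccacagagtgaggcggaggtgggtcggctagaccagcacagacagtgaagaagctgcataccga
Bhlhe41 (chr6:145865371-145865670, minus strand): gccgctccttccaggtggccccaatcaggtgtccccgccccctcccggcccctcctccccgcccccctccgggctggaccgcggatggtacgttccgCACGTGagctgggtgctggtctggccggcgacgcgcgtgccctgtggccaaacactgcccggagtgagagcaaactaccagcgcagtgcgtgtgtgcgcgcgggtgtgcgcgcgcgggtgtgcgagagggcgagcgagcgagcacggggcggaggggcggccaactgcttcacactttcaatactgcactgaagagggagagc
Tef (chr15:81802423-81802722, plus strand): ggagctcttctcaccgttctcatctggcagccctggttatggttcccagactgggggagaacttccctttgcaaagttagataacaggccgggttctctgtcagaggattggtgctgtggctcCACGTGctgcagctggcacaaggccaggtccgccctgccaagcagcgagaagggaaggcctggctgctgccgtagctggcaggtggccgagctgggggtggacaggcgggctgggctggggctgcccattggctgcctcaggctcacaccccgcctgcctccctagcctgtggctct
Per3 (chr4:151044616-151044915, minus strand): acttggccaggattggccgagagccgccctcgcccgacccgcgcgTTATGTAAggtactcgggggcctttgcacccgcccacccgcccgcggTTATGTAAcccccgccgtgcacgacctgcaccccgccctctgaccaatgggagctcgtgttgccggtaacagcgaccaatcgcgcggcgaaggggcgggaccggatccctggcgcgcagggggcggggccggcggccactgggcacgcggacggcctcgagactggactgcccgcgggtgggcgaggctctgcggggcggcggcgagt
Arntl (chr7:113207261-113207560, plus strand): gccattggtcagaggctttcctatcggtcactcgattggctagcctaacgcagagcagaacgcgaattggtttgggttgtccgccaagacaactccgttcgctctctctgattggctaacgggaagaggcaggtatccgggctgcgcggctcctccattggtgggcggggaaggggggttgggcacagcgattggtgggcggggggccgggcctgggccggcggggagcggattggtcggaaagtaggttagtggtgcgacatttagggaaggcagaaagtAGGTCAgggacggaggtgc

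The Ciart window held the E-box 3 times, from its bases 135, 193 and 207, and the last pair lay close together just before the start of transcription. In Per3 the same D-box letters stood at bases 46 and 93. The Arntl half-site began at base 282, after the start. These are matches of letters only, and the windows of Nr1d1, Dbp and Hlf held none of them.

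The DMSO library held 5812 barcodes and 39150511 unique molecular identifiers (UMIs, each a counted RNA molecule), and the MVC library 6047 barcodes and 36063575 UMIs. A cell was kept if 500 or more genes were seen in it and no more than 10% of its UMIs were mitochondrial, which left 5437 and 5454 cells with medians of 5802 and 5195 UMIs and of 1.62% and 1.81% mitochondrial UMIs, and 8 of the kept barcodes occurred in both libraries. Clustering without the clock genes gave 27 clusters, named "-like" from lists of marker genes because a cell annotation by the authors was not used here, and 12 classes held at least 50 cells in each library. The largest were endothelial (EC-like, 2208 DMSO and 2077 MVC cells), fibro-adipogenic progenitor (FAP-like, 1191 and 1450), tenocyte-like (445 and 504), pericyte-like (296 and 286), macrophage-like (152 and 211), muscle stem cell (MuSC-like, 144 and 257) and B cell-like (206 and 106) cells. The MuSC-like cells had Pax7 and Myod1 among their leading genes, and only 15 and 26 cells resembled muscle fibres, under a label of mononuclear muscle cells. A level is given as UMIs of a gene for every 1000000 UMIs of the same cells (counts per 1000000, CPM); levels are compared between libraries and between cell classes, not between genes.

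Over all kept cells, 9 of the 10 genes were at a higher level in the MVC library and Arntl at a lower one. A ratio of 1.5 was used as the mark for a difference in place of a test, and 7 of the 10 genes were higher by that fold (Nr1d1, Nr1d2, Dbp, Tef, Per2, Per3 and Bhlhe41) and 0 were lower. Of the 16805 genes with at least 50 UMIs over both libraries, 7.63% were higher and 5.56% lower by the same fold, and since the 10 genes were selected on this contrast nothing is read from the comparison. With ratios centred on the median of all genes these shares were 6.23% and 6.45% over all cells, 7.94% and 5.08% in EC-like, 7.27% and 5.05% in FAP-like and 7.85% and 7.21% in pericyte-like cells. The median log2 ratio, MVC over DMSO, of the 9 genes other than Arntl was 1.12, against 0.06 over all 16805 genes.

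**Figure D1:**
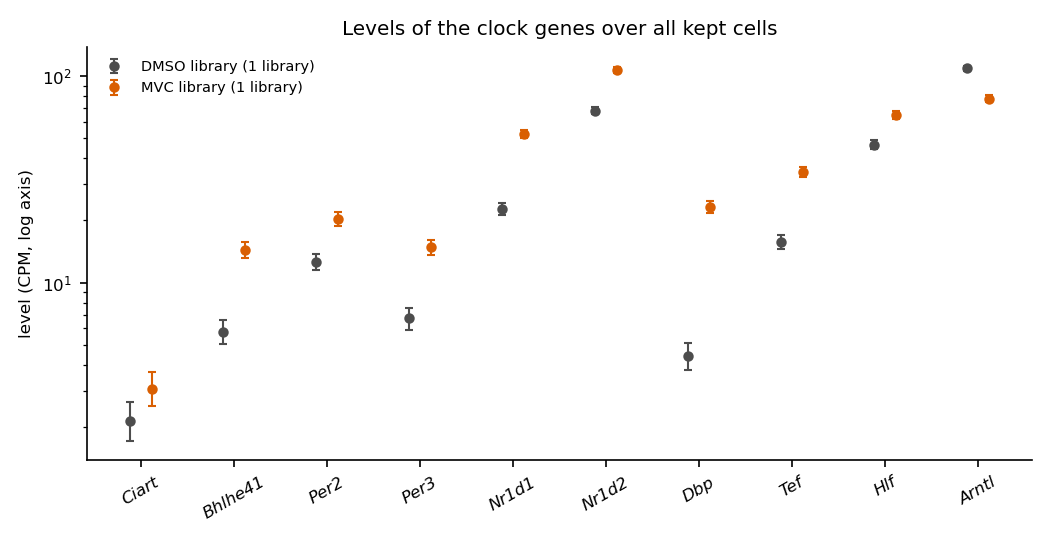
Level of each clock gene in CPM (log axis) over all kept cells of the DMSO and the MVC library, 1 library each, with exact Poisson 95% intervals that cover counting error only. The MVC library lies above the DMSO library for 9 genes and below it for Arntl (109 against 77.8 CPM).

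Positions below are those of GENCODE M21 on GRCm38, in which all 10 genes are protein-coding, and each ratio is the MVC over the DMSO level with its 95% interval. Among the repressors of CLOCK and BMAL1, Bhlhe41 (chromosome 6, 145858243 to 145865558, minus strand) had 224 UMIs in the DMSO library and 512 in the MVC library, or 5.78 and 14.4 CPM, a ratio of 2.49 (2.13 to 2.93). Its ratio was 3.82 (2.13 to 7.21) in EC-like cells, where it was rare (1.55 against 5.92 CPM), and 2.82 (2.19 to 3.66) in FAP-like cells (6.35 against 17.9 CPM). The tenocyte-like value of 1.5 (1.01 to 2.26) did not keep its direction when every cell was thinned to 2000 UMIs (log2 ratio -0.094). In the MVC library its highest levels were those of B cell-like and perineurial-like cells, 39.6 and 33.5 CPM, with overlapping intervals and an order that turned without the cells called as doublets. The B cell-like level rested on 27 UMIs, against 7.59 CPM from 9 UMIs in the DMSO library. Pericyte-like cells held next to none, with 0 and 2 UMIs.

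Per2 (chromosome 1, 91415982 to 91459324, minus strand), which forms the inhibitory complex with the CRY proteins, was at 12.6 CPM in the DMSO library and 20.4 CPM in the MVC library, a ratio of 1.62 (1.44 to 1.82). Pericyte-like cells held the most, 65.5 CPM in the DMSO library and 89.6 CPM in the MVC library, with an interval above that of tenocyte-like cells, the next class in both libraries (26.4 and 34.2 CPM). In these classes, where Per2 was highest, the ratio stayed under 1.5, at 1.37 (1.03 to 1.81) in pericyte-like and 1.29 (0.999 to 1.68) in tenocyte-like cells. In EC-like and FAP-like cells, where its level was below 10 CPM in the DMSO library, the ratios were 2.15 (1.62 to 2.87) and 1.86 (1.48 to 2.35). MuSC-like cells went from 17.5 to 33.7 CPM, on 18 and 62 UMIs, and thinned to 2000 UMIs per cell that difference shrank to a log2 ratio of 0.077.

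Per3 (chromosome 4, 151003652 to 151044665, minus strand), a member of the same family without which the clock of mice still runs, had 260 and 527 UMIs (6.71 and 14.8 CPM), a ratio of 2.21 (1.90 to 2.58). FAP-like cells went from 8.44 to 22.6 CPM, a ratio of 2.68 (2.15 to 3.37), and EC-like cells from 3.97 to 9.25 CPM, with the overlapping interval of 2.33 (1.57 to 3.50). Tenocyte-like cells were nearly level, at 11.3 and 10.4 CPM (0.921, 0.592 to 1.43). In the annotation the whole of Per3 lies inside Camta1 on the same strand, so reads of either could be assigned to the other; Camta1 had a ratio of 0.958 (0.921 to 0.996).

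Ciart (chromosome 3, 95878503 to 95882251, minus strand) had the fewest UMIs, 83 and 109 (2.14 and 3.07 CPM), with a ratio of 1.43 (1.07 to 1.93). Among the classes it reached 50 UMIs only in EC-like cells, where the ratio was 1.18 (0.666 to 2.09). Its counts are uncertain, since 20.8% of the 31-base words of its transcripts also occur in transcripts of Gm9176 and the antisense gene C920021L13Rik covers all of it.

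The REV-ERB genes were among the best covered. Nr1d1 (chromosome 11, 98767932 to 98775333, minus strand) had 883 UMIs in the DMSO library and 1864 in the MVC library, 22.8 and 52.5 CPM, with a ratio of 2.30 (2.12 to 2.5). Its highest DMSO level was in tenocyte-like cells (45.8 CPM) and its lowest in B cell-like cells (0.843 CPM, 1 UMI). These intervals overlapped those of MuSC-like and of T/NK-like cells, the next in order. In the MVC library 4 of the 5 largest classes stood between 51.8 and 61.8 CPM. The ratio was 2.66 (2.24 to 3.17) in EC-like, 2.47 (2.17 to 2.82) in FAP-like and 1.35 (1.11 to 1.64) in tenocyte-like cells. Schwann-like cells had the highest level in the MVC library, 86.3 CPM against 30.7 CPM in the DMSO library. Their MVC interval overlapped that of FAP-like cells. The pericyte-like ratio of 1.52 (0.989 to 2.34) was not stable, and by the mean of each cell's own CPM its log2 value was -0.33. Thra, which overlaps the end of Nr1d1 on the opposite strand, had a ratio of 1.43 (1.36 to 1.51); whether the counting used strand was not given in the sources used here.

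Nr1d2 (chromosome 14, 18204054 to 18239127, minus strand) was at 67.9 and 107 CPM, from 2631 and 3803 UMIs, a ratio of 1.58 (1.5 to 1.66). Nr1d2 and Arntl were the genes of the 10 with at least 50 UMIs in every class of at least 100 cells per library, and Nr1d2 was higher by 1.5-fold in 4 of those 7 classes, which held for 0.627% of the 4150 genes measured as well. Those were EC-like (1.75, 1.57 to 1.97), FAP-like (1.63, 1.51 to 1.77), pericyte-like (1.7, 1.31 to 2.20) and MuSC-like cells (1.74, 1.36 to 2.24). The other three were tenocyte-like (113 and 120.0 CPM), macrophage-like (49.3 and 54.6 CPM) and B cell-like cells (37.9 and 39.6 CPM), with intervals of the ratio that included 1. B cell-like cells had the lowest level in both libraries, with intervals that overlapped those of T/NK-like cells. Of the 31-base words of its transcripts 9.51% occur in another annotated gene, AC170187.1, which was not analysed here.

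In the PAR family, Dbp (chromosome 7, 45705088 to 45710203, plus strand) differed most, with 171 UMIs and 4.41 CPM in the DMSO library against 823 UMIs and 23.2 CPM in the MVC library, a ratio of 5.25 (4.45 to 6.23). The 3 classes with at least 50 UMIs gave like ratios, 5.10 (3.48 to 7.66) in EC-like, 5.33 (4.13 to 6.98) in FAP-like and 4.35 (3.0 to 6.47) in tenocyte-like cells. In the DMSO library its level was low everywhere, at most 9.99 CPM in perineurial-like cells, and 0 UMIs were found in macrophage-like cells, whose MVC level was 8.54 CPM from 18 UMIs. In tenocyte-like cells Dbp had the largest ratio of the 9 genes with enough UMIs.

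Tef (chromosome 15, 81802421 to 81826863, plus strand) was at 15.7 and 34.3 CPM, a ratio of 2.18 (1.98 to 2.41). EC-like cells held less than FAP-like cells in the DMSO library, 9.69 against 19.98 CPM, and nearly as much in the MVC library, 35.3 against 37.8 CPM. The ratios were 3.64 (2.89 to 4.62) in EC-like, 2.57 (1.46 to 4.84) in MuSC-like, 2.11 (1.30 to 3.48) in pericyte-like, 1.89 (1.63 to 2.20) in FAP-like and 1.30 (1.0 to 1.7) in tenocyte-like cells. Over the 7 classes with at least 50 UMIs, Schwann-like and perineurial-like cells included, all ratios were above 1.

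Hlf (chromosome 11, 90336536 to 90390895, minus strand) had the widest spread of ratios over classes. Its level over all cells was 46.6 CPM in the DMSO library and 64.7 CPM in the MVC library, a ratio of 1.39 (1.31 to 1.48). Perineurial-like, FAP-like and pericyte-like cells held the most in both libraries, at 121, 96.8 and 77.7 CPM in the DMSO library, and their ratios were 1.04 (0.739 to 1.45), 1.20 (1.11 to 1.29) and 1.27 (0.979 to 1.65). In EC-like cells Hlf went from 5.91 CPM on 61 UMIs to 27.3 CPM on 221 UMIs, a ratio of 4.62 (3.46 to 6.23). MuSC-like cells went from 6.79 CPM on 7 UMIs to 27.1 CPM on 50 UMIs (3.99, 1.80 to 10.4). Tenocyte-like cells went the other way, 42.8 against 33.0 CPM (0.771, 0.611 to 0.972). The difference between these classes was not tested.

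Arntl (chromosome 7, 113207465 to 113314126, plus strand), the activator of the loop, had 4218 UMIs in the DMSO library and 2762 in the MVC library, 109 and 77.8 CPM, a ratio of 0.714 (0.681 to 0.750). In the DMSO library MuSC-like and tenocyte-like cells had the highest levels, 185 and 162 CPM, with overlapping intervals. In the MVC library these were 104 and 88.2 CPM, and T/NK-like cells, at 97.6 CPM, overlapped MuSC-like cells and stood above them without the cells called as doublets (121 against 105 CPM). MuSC-like and tenocyte-like cells were the classes of the 7 lower by 1.5-fold, at 0.562 (0.458 to 0.690) and 0.544 (0.477 to 0.619); a lower value in at least 2 of 7 classes was found for 3.69% of the 4150 genes. FAP-like cells were at 0.670 (0.622 to 0.721), EC-like cells at 0.723 (0.648 to 0.807) and pericyte-like cells at 0.741 (0.564 to 0.968). In macrophage-like and B cell-like cells the intervals included 1, with ratios of 0.836 (0.644 to 1.09) and 0.852 (0.588 to 1.22). Of the 12 classes 10 had a ratio below 1, and the exceptions were SMC/pericyte-like cells (1.32, 0.873 to 1.99), a cluster with markers of smooth muscle and pericytes, and lymphatic EC-like cells (1.37, 0.802 to 2.35).

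**Figure D2:**
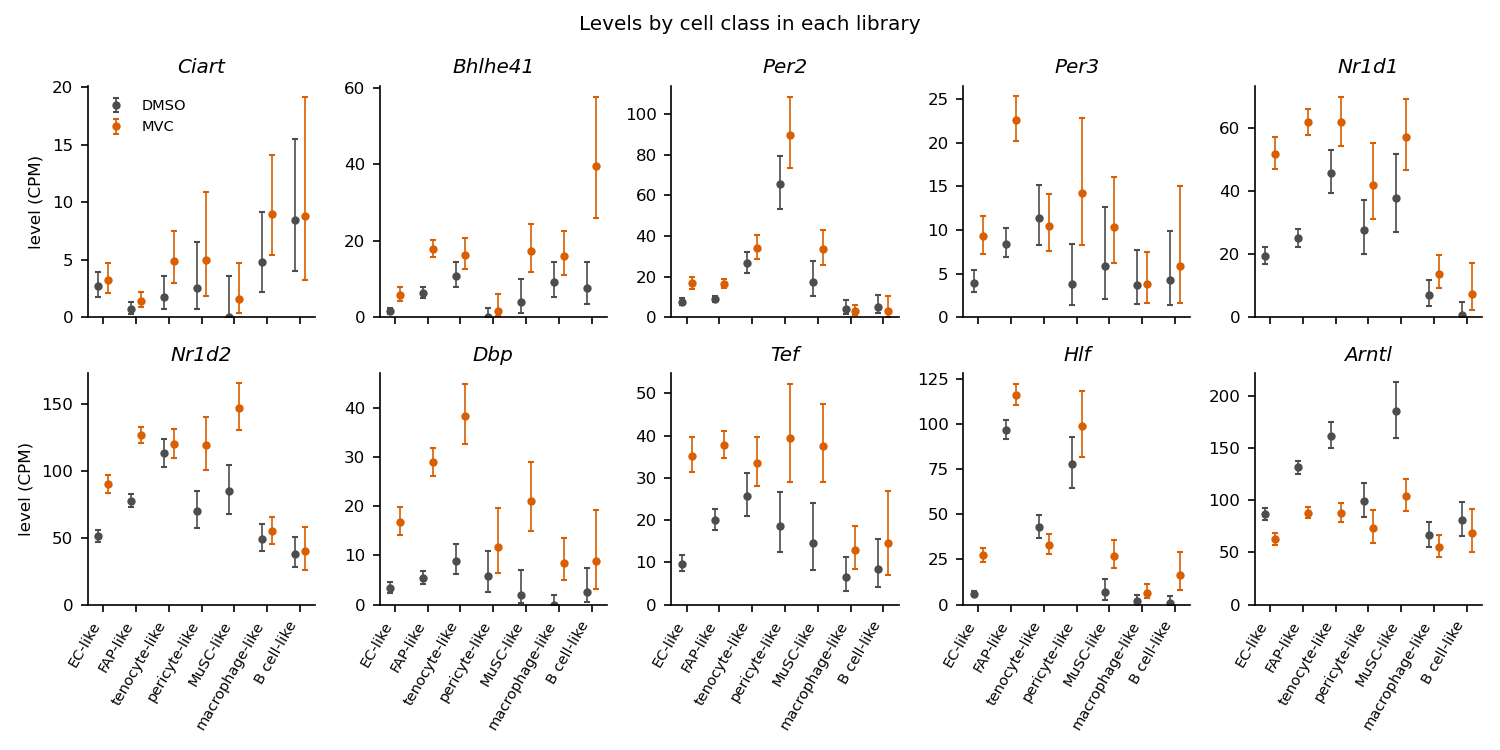
Level in CPM of each gene in the 7 classes with at least 100 cells in each library, for the DMSO and the MVC library, with exact Poisson 95% intervals (counting error only); each panel has its own axis from 0. Per2 is highest in pericyte-like cells of both libraries, and the Arntl level of MuSC-like and tenocyte-like cells lies lower in the MVC library (104 and 88.2 CPM) than in the DMSO library (185 and 162 CPM).

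Taking the classes one by one, EC-like cells had 8 of the 10 genes higher by 1.5-fold and 0 lower, against 9.88% higher and 3.90% lower of 11585 genes. The 2 remaining genes were Ciart and Arntl. The median log2 ratio of the 9 genes other than Arntl was 1.41 in these cells, and 0.07 over all genes.

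FAP-like cells had 7 higher and 0 lower of 9 genes with enough UMIs, against 11.9% and 2.99% of 12743 genes, with a median log2 ratio of 1.11 for the genes other than Arntl. The genes under the mark were Hlf and Arntl. All genes had a median of 0.14 in these cells, and relative to it Arntl stood at -0.72, past the fold. MuSC-like cells had 5 higher (Nr1d1, Nr1d2, Tef, Hlf and Per2) and 1 lower (Arntl) of 6, against 10.9% and 8.24% of 6249 genes. Without the cells called as doublets 3 genes were higher, and with thinning to 2000 UMIs 1 was. Genes known to be induced by dissociation of tissue, immediate early genes such as Fos and Jun among them, had ratios above 1 for 16 of 19 in these cells with a median log2 ratio of 0.50, and their part in the result was not tested.

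Pericyte-like cells had 3 higher (Nr1d1, Nr1d2 and Tef) and 0 lower of 6 genes, against 9.94% and 5.76% of 6964 genes. Here the dissociation-induced genes were lower, 0 of 19 above a ratio of 1 with a median of -0.50, and 12.5% of the cells were called doublets; the part of either was not tested. Tenocyte-like cells had 2 higher (Dbp and Bhlhe41) and 1 lower (Arntl) of 9, against 9.25% and 5.38% of 9491 genes, and a median log2 ratio of 0.38 for the genes other than Arntl. Of these 2 higher genes only Dbp was left without the cells called as doublets, and with thinning, which left Dbp under 50 UMIs, 0 were higher and 2 lower. The 7 other classes had 2 to 5 of the 10 genes with at least 50 UMIs. In some of them Nr1d2 was the only such gene other than Arntl. Its log2 ratio was -0.072 in lymphatic EC-like, 0.062 in B cell-like, 0.14 in T/NK-like and 0.25 in SMC/pericyte-like cells. The median log2 ratio of the genes other than Arntl was 0.49 in macrophage-like (2 genes), 0.53 in perineurial-like (3 genes) and 0.90 in Schwann-like cells (4 genes). These values rest on different genes and cannot be compared between the classes.

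Across the 5 largest classes (EC-like, FAP-like, tenocyte-like, pericyte-like and MuSC-like), 6 genes had at least 50 UMIs in each, a choice of classes made after seeing the data. Nr1d1, Nr1d2, Tef and Per2 had ratios above 1 in 5 of 5, as did 12.1% of 5252 genes, and Hlf in 4 of 5. Arntl was below 1 in 5 of 5, as were 8.40% of the genes.

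**Figure D3:**
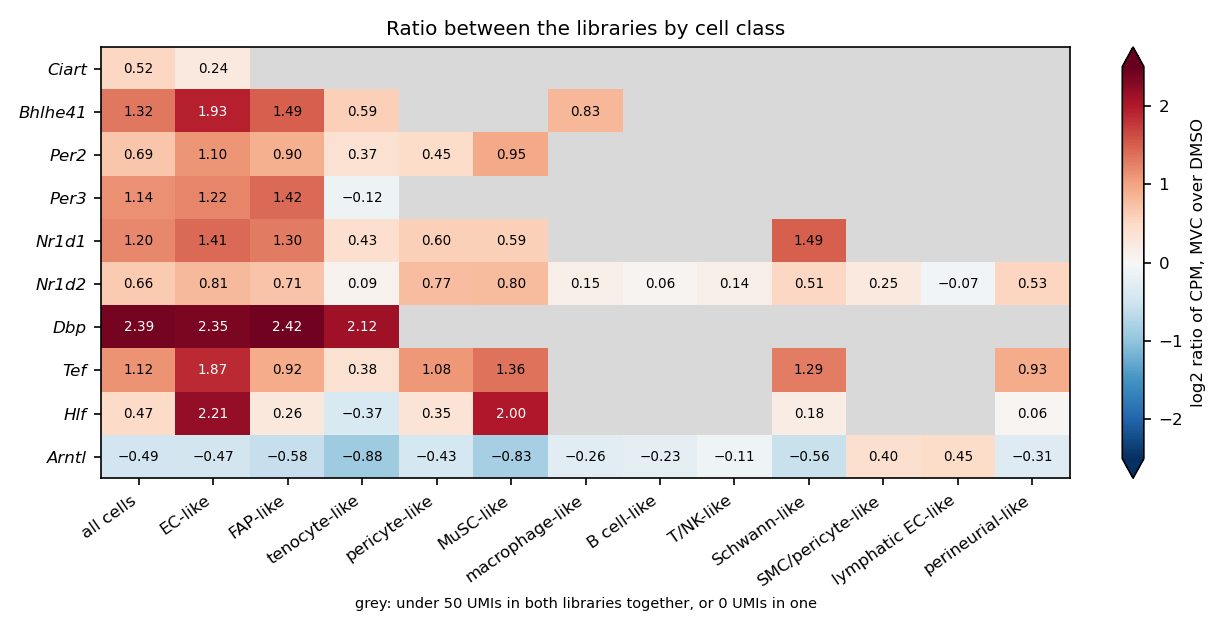
Log2 ratio of CPM, MVC over DMSO, of each gene over all cells and in the 12 classes, ordered by size; red is higher and blue lower in the MVC library, and grey fields had under 50 UMIs in both libraries together or 0 in one of them. Dbp is above 2 in the 3 classes where it could be read, Hlf spans -0.37 in tenocyte-like to 2.21 in EC-like cells, and Arntl is below 0 in 10 of 12 classes.

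The large classes were made up of several clusters whose cell numbers differed between the libraries, such as the Cxcl14-led, parenchymal-like FAP cluster 4 with 291 DMSO and 542 MVC cells, which also had a higher DMSO level of Nr1d1 (52.1 CPM) than the inflammatory-like FAP cluster 3 (12.9 CPM). Values within clusters are therefore given too. Nr1d1 had a ratio above 1 in 12 of the 12 EC-like, FAP-like and tenocyte-like clusters, from 1.03 to 4.58, with the interval above 1 in 11 of them. Arntl had a ratio below 1 in 12 of 12, from 0.51 to 0.83, with the interval below 1 in 9. All 12 clusters come from the same 2 libraries, and how many of all genes keep 1 direction over them was not counted.

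Within the endothelium, the Depp1-led capillary-like cluster 2 (360 DMSO and 600 MVC cells) showed the largest ratios of the REV-ERB genes: Nr1d1 was at 14.5 and 66.4 CPM (4.58, 2.81 to 7.88) and Nr1d2 at 42.7 and 107 CPM (2.5, 1.85 to 3.44). Dbp had 0 UMIs in its DMSO cells and 43 in its MVC cells, and Arntl was at 149 and 85.5 CPM (0.575, 0.462 to 0.715). The other capillary-like clusters 0 and 1 gave Nr1d1 ratios of 4.18 (2.71 to 6.57) and 2.99 (1.87 to 4.90). Arterial-like cluster 5 already held 45.2 CPM of Nr1d1 in the DMSO library and differed least, by 1.58 (1.18 to 2.12), and its Arntl level was low in both libraries (52.7 and 42.2 CPM). These traits were not its own, as the Nr1d1 ratio of the venous-like cluster 8, 1.92 (1.26 to 2.96), had an overlapping interval. The Arntl level of cluster 8 was 71.9 CPM in the DMSO library and 39.1 CPM in the MVC library. In the venous-like cluster 8, with E-selectin and P-selectin (Sele and Selp) as leading genes, Tef went from 6 to 48 UMIs (10.2, 4.34 to 29.0).

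Among the FAP-like clusters the PAR gene Dbp had ratios of 5.16 (2.86 to 10.0) in cluster 3, 5.03 (3.29 to 8.04) in cluster 4, 5.21 (2.70 to 11) in the Gdf10-led cluster 13 and 2.83 (1.51 to 5.71) in the adventitial-like cluster 17. Hlf stayed close to 1 in each of the 5, from 0.95 to 1.15. Cluster 17, with Pi16 and Cd248, also had the largest Nr1d1 and Nr1d2 ratios of the FAP-like clusters, 3.20 (2.07 to 5.12) and 2.32 (1.69 to 3.24). In this cluster 13 of 19 dissociation-induced genes were lower by 1.5-fold, with a median log2 ratio of -0.69, and 3 of 9 glucocorticoid-responsive genes were lower and 1 higher. Of all 5527 genes measured there, 7.54% were lower and 13.0% higher. The part of these 2 lists in the result was not tested. The adventitial-like cluster 9, led by Dmkn, had the highest Arntl level of the FAP-like clusters, 206 and 133 CPM (0.648, 0.566 to 0.741). It also had the lowest Nr1d1 level (9.38 and 21.4 CPM), with intervals that overlapped those of cluster 3. In cluster 4 Bhlhe41 and Per3 had ratios of 3.55 (2.14 to 6.22) and 2.97 (2.01 to 4.52).

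The tenocyte-like clusters differed from each other. In cluster 7, led by Col22a1, a collagen of the muscle-tendon junction, Nr1d1 had a ratio of 1.78 (1.33 to 2.40) and Hlf of 0.535 (0.391 to 0.727), from 53.7 and 28.7 CPM. In cluster 10, led by Wif1 and Kera, Nr1d1 was nearly level (64.5 and 66.5 CPM) and Hlf was at 1.39 (0.944 to 2.06). Dbp was higher in both, by 3.74 (2.20 to 6.69) and 4.89 (2.89 to 8.75), and Arntl lower in both, at 0.514 (0.436 to 0.605) and 0.619 (0.495 to 0.773). Of the pair, cluster 7 alone had the lower Hlf value.

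**Figure D4:**
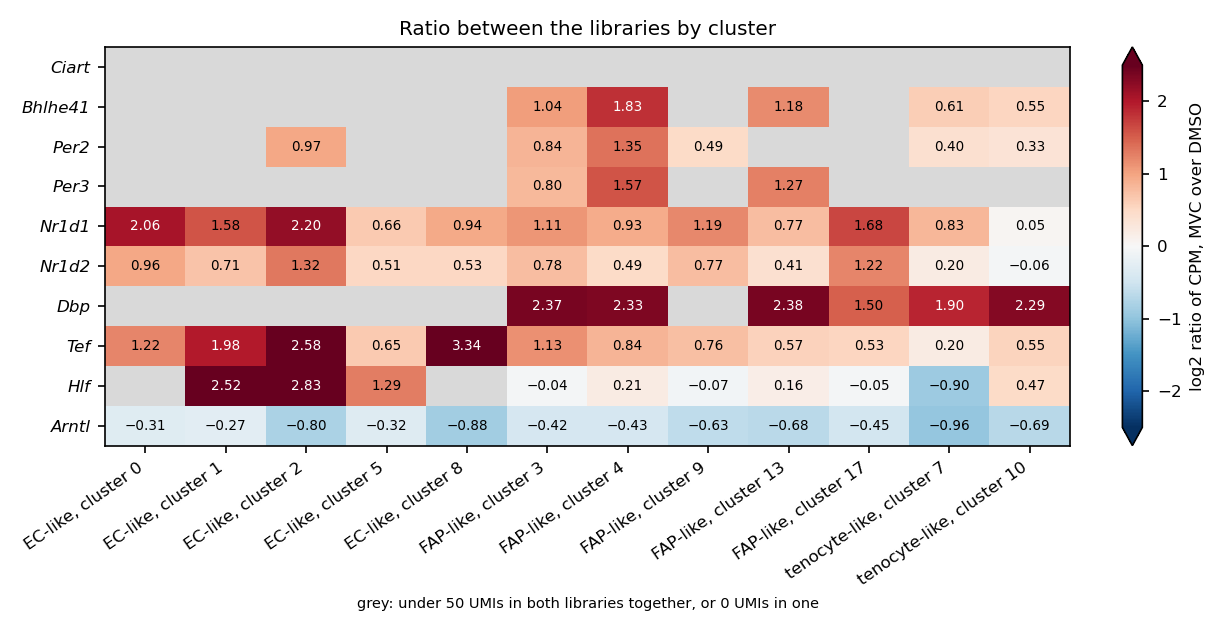
Log2 ratio of CPM, MVC over DMSO, in the 5 EC-like, 5 FAP-like and 2 tenocyte-like clusters; grey fields had under 50 UMIs in both libraries together or 0 in one of them. Arntl is below 0 in all 12 clusters shown, from -0.96 to -0.27, Nr1d1 above 0 in all 12, and Hlf is near 0 in the 5 FAP-like clusters.

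Cell by cell, with each cell thinned to 2000 UMIs and shallower cells left out (447 DMSO and 981 MVC cells), 26.2% of 4990 DMSO cells and 43.6% of 4473 MVC cells held at least 1 UMI of the 9 genes other than Arntl. In EC-like cells these shares were 16.8% and 38.3%, and in FAP-like cells 39.3% and 54.0%. Cells with 3 or more such UMIs made up 0.56% and 2.89% of EC-like cells and 3.40% and 10.2% of FAP-like cells. Tenocyte-like cells differed less in the first share, with 37.8% and 45.4% holding at least 1 UMI and 4.87% and 4.13% holding 3 or more.

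Cells with such a UMI and none of Arntl made up 22.0% of the DMSO and 38.2% of the MVC cells, and cells with Arntl alone 11.4% and 6.84%. For single genes at this depth, Dbp was seen in 1.0% (0.74% to 1.32%) of DMSO and 4.23% (3.65% to 4.86%) of MVC cells, and Arntl in 15.6% (14.6% to 16.6%) and 12.3% (11.3% to 13.2%). Without thinning the shares were 2.63% and 11% for Dbp and 34.8% and 26.4% for Arntl. No cell class here is known to lack the clock, so no class gave the share that free RNA alone would produce. In B cell-like cells, without thinning, Nr1d1 was seen in 1 of 206 DMSO cells and in 4 of 106 MVC cells. Without the cells called as doublets its level there fell from 0.843 to 0 CPM in the DMSO library and from 7.34 to 1.78 CPM in the MVC library. The 3 cells with the most UMIs of a gene held 0.95% to 11% of its UMIs, the most for Ciart in the MVC library.

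**Figure D5:**
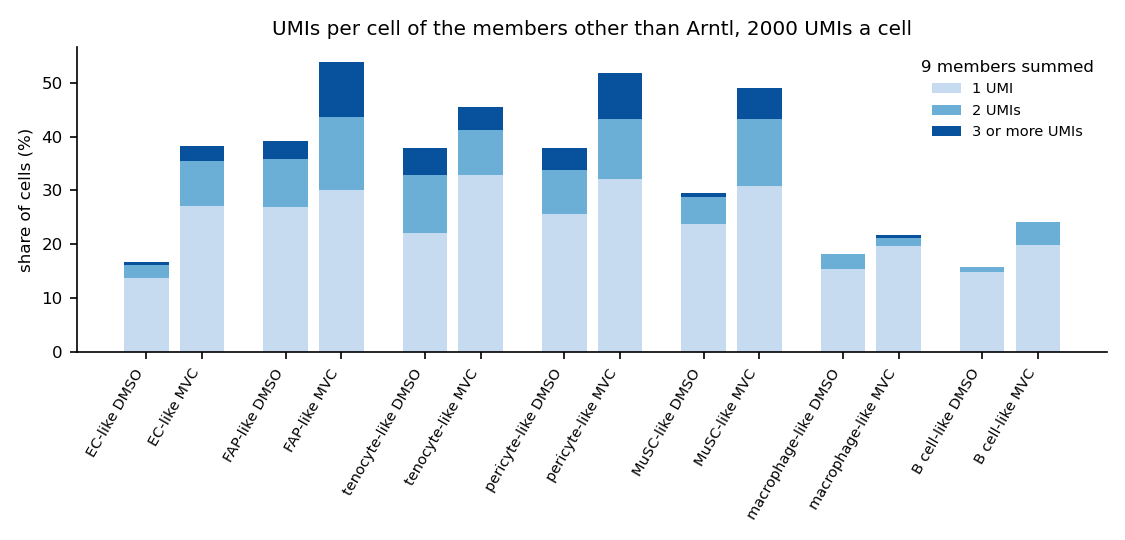
Share of cells (%) with 1, 2 and 3 or more UMIs of the 9 genes other than Arntl, summed, in the 7 classes of each library, every cell thinned to 2000 UMIs. The whole MVC bar is the taller of each pair, by the most in EC-like cells (38.3% against 16.8%) and by little in macrophage-like cells (21.7% against 18.2%).

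The same UMIs can also be set against each other within a library, without scaling to its total; these ratios are compared between the libraries and not as levels of different genes, and they rest on the counts by which the genes were selected. Arntl had 0.59 UMIs for each UMI of the 9 other genes in the DMSO library and 0.23 in the MVC library. Against Dbp alone it had 24.7 and 3.36 UMIs. In EC-like cells the ratio to the 9 genes was 0.82 and 0.25, in FAP-like cells 0.53 and 0.21, in MuSC-like cells 1.07 and 0.30, and in tenocyte-like cells 0.57 and 0.25. It was 0.37 and 0.17 in pericyte-like, 0.77 and 0.43 in macrophage-like, 1.07 and 0.48 in B cell-like, 0.50 and 0.18 in Schwann-like and 0.19 and 0.11 in perineurial-like cells. Nearer to level were T/NK-like cells (1.14 and 1.0), lymphatic EC-like cells (0.23 and 0.28) and SMC/pericyte-like cells (0.60 and 0.55).

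Over all cells most other genes of the clock differed by less than 1.5-fold. Of 15 such genes measured, 0 were higher by 1.5-fold and 1 was lower, with a median log2 ratio of -0.05. Clock, the partner of Arntl, was at 117 and 106 CPM (0.904, 0.865 to 0.944), and its paralog Npas2 at 57.3 and 53.4 CPM (0.932, 0.876 to 0.991). The repressors Cry1 (1.03, 0.976 to 1.09), Cry2 (1.05, 0.981 to 1.13) and Per1 (0.919, 0.850 to 0.993), and Nfil3, which opposes the PAR factors at D-boxes (0.893, 0.843 to 0.946), lay close to 1. By class some passed the fold. EC-like cells had 2 of 13 higher, against 9.88% of all genes, and macrophage-like cells 1 of 11, against 10.0%. MuSC-like cells had 2 of 12 higher and 1 lower, against 10.9% and 8.24%. B cell-like cells had 4 of 10 higher and 1 lower, against 12.4% and 8.3%. Tenocyte-like cells had 1 of 12 lower, against 5.38%, and pericyte-like cells 1 of 13, against 5.76%. Counts this small are not read as a result about a class. Cry2 was higher in EC-like cells, 11.9 against 24.3 CPM (2.04, 1.62 to 2.58), as was the receptor gene Rora (1.51, 1.40 to 1.63). Rora was also higher in macrophage-like cells (2.22, 1.82 to 2.73) and by the most in B cell-like cells, 14.3 against 202 CPM (14.1, 8.51 to 24.9), where Bhlhe40 (3.78, 2.27 to 6.5), Csnk1e (2.40, 1.32 to 4.43) and Nfil3 (2.11, 1.24 to 3.62) were higher and Per1 (0.588, 0.358 to 0.936) was lower. These B cell-like values include cells called as doublets and were not counted again without them. Without such cells the MVC level there fell from 16.1 to 1.78 CPM for Hlf, and from 39.6 to 35.6 CPM for Bhlhe41. Bhlhe40, the paralog of Bhlhe41, was higher in MuSC-like cells too (2.22, 1.45 to 3.49), as was Btrc (2.20, 1.28 to 4.0), and there Npas2 was lower, 231 against 139 CPM (0.602, 0.502 to 0.721). Cry1 was lower in tenocyte-like cells (0.659, 0.567 to 0.766) and Npas2 in pericyte-like cells (0.664, 0.477 to 0.916). Among the smaller classes, Schwann-like cells had 2 of 10 higher and 1 lower, against 12.2% and 7.4% of all genes. Their ratios were 1.81 (1.01 to 3.37) for Cry2, 1.72 (1.02 to 2.97) for Btrc and 0.440 (0.293 to 0.652) for Nfil3. Perineurial-like cells had 1 of 9 higher and 3 lower (all genes 16.2% and 11.2%) and T/NK-like cells 1 of 10 and 2 (15.3% and 13.3%). Lymphatic EC-like cells had 2 of 8 and 1 (9.43% and 11.6%), and SMC/pericyte-like cells 1 of 10 and 1 (10.6% and 9.6%).

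Of 9 genes known as clock-controlled in many tissues, 1 was higher and 2 were lower over all cells, with a median log2 ratio of -0.13. Wee1, a kinase that delays entry into mitosis, was the higher one at 14.4 and 24.6 CPM (1.7, 1.53 to 1.90), with 2.07 (1.75 to 2.46) in EC-like and 1.80 (1.34 to 2.42) in tenocyte-like cells. The lower ones were Pdk4, a brake on glucose oxidation (0.543, 0.479 to 0.614), and Tsc22d3, the glucocorticoid-induced leucine zipper (0.626, 0.596 to 0.658). Glucocorticoid hormones, which have a daily rhythm of their own, act on the clocks of peripheral tissues, and the list of their responsive genes shares Tsc22d3, Klf9 and Per1 with the clock lists. Of 9 glucocorticoid-responsive genes 0 had a ratio above 1 over all cells, 1 was lower by 1.5-fold (Tsc22d3) and the median was -0.34. In pericyte-like cells 6 of 9 were lower with a median of -0.75, in FAP-like cells 3 and in EC-like cells 1. The share of all genes lower was 5.56% over all cells, 5.76% in pericyte-like, 2.99% in FAP-like and 3.90% in EC-like cells. The 19 dissociation-induced genes had a median of 0.02 over all cells, 0 of them past the fold in either direction. The part of the glucocorticoid-responsive genes in the values of the 10 genes was not tested.

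By the root mean square difference of log2 ratios over the 7 classes with at least 100 cells per library, the genes nearest to the median of the genes other than Arntl included Exoc6 (0.34), Elmsan1 (0.41), Uqcc1 (0.42) and Rnf213 (0.42), out of 4150 genes. In each class that median covered only the genes with at least 50 UMIs. These were 9 in EC-like, 5 in pericyte-like and in MuSC-like, 2 in macrophage-like and 1 (Nr1d2) in B cell-like cells. The profile thus mixes different genes selected on this contrast, and nothing is read from the likeness. Exoc6, for example, had log2 ratios of 0.66 in EC-like, 1.01 in FAP-like and 0.11 in tenocyte-like cells, against medians of 1.41, 1.11 and 0.38. Nearest to Arntl were Fth1 (0.18), Rnf167 (0.20) and Srsf7 (0.20).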

How the data were processed

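Live mononuclear cells of limb muscle were measured by 10x Genomics single-cell RNA-seq in 1 DMSO and 1 MVC library. The deposited values were UMI counts per gene and cell barcode; the submitters' processing notes name Cell Ranger 7.0.0, Seurat 5.0.1 and the build mm10. The kit's end, strand and intron settings were not given in the sources used here. Removal of doublets or free RNA before deposit was not stated, and free RNA was not corrected for.

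The 10 genes, the gene lists (15 other clock genes, 9 clock-controlled, 9 glucocorticoid-responsive and 19 dissociation-induced genes) and the marker lists were chosen with earlier results of these data known. Barcodes with under 500 genes or over 10% mitochondrial UMIs were left out. The others were clustered in scanpy 1.11.5 (2000 variable genes without the clock genes, 30 principal components, 20 neighbours, Leiden resolution 1) and a cluster was named from at least 3 markers. Doublets were called by simulated doublets among 50 neighbours and kept in the values reported. UMIs were summed per class and library and given for every 1000000 UMIs (CPM), with exact Poisson intervals for levels, exact conditional intervals for ratios and exact Clopper-Pearson intervals for shares, computed in scipy 1.17.1. A gene was read where both libraries together held at least 50 UMIs, and called higher or lower at 1.5-fold. No test was made, as there was 1 library per group. The ratio script was checked on simulated data. All 10 genes were named, with genes of the lists and, for likeness, the 5 nearest to the median of the 9 genes and the 3 nearest to Arntl; 1 of the 5 and 1 other clock gene are not reported here. The alternatives tried were other cell filters, doublets removed, median centring, the mean of each cell's own CPM, thinning to 2000 UMIs, equal class weights, clusters drawn after centring genes within each library, other folds and other UMI minimums. Of the 32285 gene identifiers 32158 were in GENCODE release 21.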

Additional observations from a re-analysis of the deposited data

Results flagged for a closer look

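The log2 ratio of Hlf, MVC over DMSO, differed between cell classes: it was 2.21 in EC-like cells, 2.0 in MuSC-like cells, 0.26 in FAP-like cells and -0.37 in tenocyte-like cells. The first 3 of these lie above 0 and the tenocyte-like value lies below it. Within the 5 FAP-like clusters the log2 ratio of Hlf ran from -0.072 to 0.21, all under the class value, and 3 lay below 0. The tenocyte-like clusters went opposite ways, with -0.90 in cluster 7 and 0.47 in cluster 10. The FAP-like and tenocyte-like class values therefore do not describe each of their clusters. With 1 library per group each class gave a single value, and the difference between the classes was not tested.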

How the results depend on the processing

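Over all cells every gene kept its direction under the 7 alternatives tried, with log2 ratios of 1.14 to 1.43 for Nr1d1, 2.16 to 2.39 for Dbp and -0.54 to -0.37 for Arntl. Thinned to 2000 UMIs per cell, Nr1d1 was at 1.43 and Arntl at -0.40. By the mean of each cell's own CPM, Tef was at 1.28, Hlf at 0.62, Per2 at 0.89 and Arntl at -0.37. The count of genes higher by the fold over all cells stayed between 5 and 8, and 0 were lower. Of all genes over all cells, 2.22% (2-fold) to 9.52% (at least 20 UMIs) were higher. The share lower was 2.33% to 7.54% at the same settings. In FAP-like cells 4 genes were higher at 2-fold, and 1 was lower after centring. In tenocyte-like cells 1 was higher at 2-fold, after centring or without doublets and 0 after thinning, and 0 were lower at 2-fold and 2 after thinning. In pericyte-like cells 1 was higher at 2-fold, with at least 100 UMIs or after thinning, and 5 with at least 20 UMIs. In MuSC-like cells 2 were higher at 2-fold or with at least 100 UMIs, 8 with at least 20 UMIs, 3 without doublets and 1 after thinning, and 0 were lower at 2-fold. Over the same 5 classes the share of all genes that was higher was 2.23% to 3.84% at 2-fold, 12.7% to 16.4% with at least 20 UMIs, 6.86% to 9.29% with at least 100 UMIs, 7.27% to 11.6% after centring, 8.86% to 11.8% without doublets and 8.56% to 10.3% after thinning. The share lower was 0.889% to 1.7% at 2-fold, 2.95% to 10.0% after thinning and 5.05% in FAP-like cells after centring. A higher fold and a higher UMI minimum leave fewer genes by construction. Thinning leaves fewer genes with at least 50 UMIs, but it also changes the ratios themselves, as for Bhlhe41 in tenocyte-like cells. How much of the shifts after thinning came from either, and the cause of the other shifts, was not tested. Of 360 values per class under alternatives 23 changed sign, 2 of them for genes past the fold: Bhlhe41 in tenocyte-like cells after thinning (-0.094) and Nr1d1 in pericyte-like cells by the mean of each cell's own CPM (-0.33). The scarce genes Ciart, Per3 and Dbp could be read in few classes at this depth. No paired analysis was possible because each group had 1 library.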
